A study of Solanum lycopersicum with 17 samples.

Results

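The comparison described here is that of fertile tomato floral buds at stage 2 with fertile buds at stage 1, the first step of bud growth that was sampled. Its 5 libraries, of 17 in all, are the stage 1 replicates 2 and 3 and the stage 2 replicates 1, 2 and 3 of line T-1082, chosen by their labels. The study sequenced RNA of whole floral buds from this male-fertile line and from a male-sterile line, ms1035, at 3 stages that the labels number without defining them. No treatment is named for either line, and neither the age of the plants nor the number of buds or plants behind a library is given in the sources used here. All libraries of 1 line and stage are called biological replicates, so the p-values below measure the spread between such libraries. The 6 sterile libraries of stages 1 and 2 set the same step beside the fertile one, and the 3 fertile libraries of stage 3 show where a gene went next. All 17 libraries entered 1 fit, so those outside the comparison also shaped the estimate of spread behind every p.

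In a growing bud the anther is lined by the tapetum, a cell layer that feeds the developing pollen, makes material for the pollen wall and is then broken down. In Arabidopsis the tapetum is set up by a chain of transcription factors, beginning with bHLH and MYB proteins and ending with MYB80 and the PHD-finger protein MS1, and the target genes include lipid transfer proteins and proteases. The petals and carpels of the bud grow under the control of MADS-box organ identity genes, and the outer cell layer is covered with cutin.

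The 5 libraries held 595774 to 817548 reads assigned to genes, and 99.0% to 99.47% of these were assigned uniquely. Levels are given as CPM, a gene's reads divided by its library's assigned reads and scaled up. No read in either stage 1 library allows up to 2.23 CPM (3 reads over the group), and no read at stage 2 up to 1.31 CPM. These limits and the intervals of read ratios below cover counting error only. On the first principal component of the 5 libraries, with 36.6% of the variance, stage 1 replicates 3 and 2 lay at -56.3 and -13.7, and stage 2 replicates 3, 1 and 2 at -1.89, 25.7 and 46.2. By rank correlation across genes, stage 1 replicate 3 was closer to stage 2 replicate 3 (0.858) than to its own group's replicate 2 (0.843), and stage 1 replicate 2 was closer to stage 2 replicate 2 (0.85). Organ identity genes of flowers were read in every library. The 4 late pollen genes, LAT52 and PRK1 among them, had 0 reads at stage 1. At stage 2 each had at most 2 reads over the libraries, so few or none of these transcripts were counted at either stage. Because whole buds were sequenced, fewer cells of a type cannot be told apart from less RNA per cell.

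By the edgeR quasi-likelihood test, 21 of 13568 tested genes (0.155%) passed an adjusted p of 0.05 between the stages. At stage 2, 13 (0.0958%) were higher and 8 (0.059%) lower. At an unadjusted p under 0.05 there were 1264 genes (9.32%), of which 736 were higher (5.42%) and 528 lower (3.89%). For all 21 genes the 2 stage 1 libraries lay apart from the 3 stage 2 libraries without overlap, as they did for 27.4% of all tested genes. Stage 2 was higher without overlap in 10.1% of tested genes and lower in 17.3%, and these shares apply to every such gene below. Over all tested genes the median log2 change was -0.0199, and 48% had a change above 0. The number of calls rested on single libraries and on the shared spread. It was 8 without stage 1 replicate 2 and 0 without stage 1 replicate 3, which leave 1 library at stage 1. A fit on only the 5 libraries compared called 5 genes, 3 of them among the 21.

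With the replicate number as a block over all libraries, 82 genes (0.604%) passed, 66 of them higher (0.486%) at stage 2. With a separate block in each line, 195 genes (1.44%) passed, 154 of them higher (1.14%). All 21 genes passed in both blocked fits. The labels do not say that a number marks a shared plant, day or batch, and stage 1 and stage 2 share only the numbers 2 and 3.

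Of the 4 tapetum products 1 rose, a cysteine protease gene (CysProt, Solyc07g053460). Its level was 26.7 CPM (20 reads) in stage 1 replicate 2 and 0 in replicate 3, against 1822, 1936 and 9231 CPM in stage 2 replicates 1, 2 and 3. Every stage 2 library lay above both stage 1 libraries, and replicate 3 held by far the highest level. The log2 change was 8.37 (SE 1.20, edgeR adjusted p = 0.00903). Scaled also by coding length (RPKM), the gene ranked 37, 27 and 2 among all gene models in the stage 2 libraries, and 7379 in stage 1 replicate 2. Its level at stage 3 was 1931, 713 and 4426 CPM. In sterile buds 1 read was counted at each of stages 1 and 2. Without stage 1 replicate 3 the call was lost (edgeR adjusted p = 0.112), as it was in the fit on only the libraries compared (edgeR adjusted p = 0.162).

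The other 3 tapetum products were already abundant at stage 1 and did not pass. TomA108 (Solyc01g009590), a small anther-specific protein gene, stood at 407 and 1170 CPM at stage 1 and at 695, 89.3 and 952 CPM at stage 2. STR1 (Solyc03g053130) stood at 223 and 1252 CPM, then at 523, 75.8 and 1070.0. An aspartic proteinase gene (AspProt, Solyc06g069220) stood at 536 and 1803 CPM, then at 1936, 7.34 and 1526. In all 3 genes the stages overlapped, and stage 2 replicate 2 was the lowest of the 5 libraries. The log2 changes were -0.35 (SE 0.75), -0.31 (SE 0.97) and 0.07 (SE 1.02), with edgeR adjusted p of 0.952, 0.979 and 0.999. Without stage 2 replicate 2 the first 2 changes took the other sign, at 0.16 and 0.22, and that of the aspartic proteinase gene was 0.66. With the replicate block the changes were -1.18, -0.99 and -1.43, and none passed (edgeR adjusted p = 0.254, 0.549 and 0.609). At stage 3 these genes stood at 6.01 to 42.2, 13.9 to 209.7 and 2.00 to 16.6 CPM.

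Of the 6 anther regulators, none passed by edgeR in the low-count-filtered fit, and 1 had an unadjusted p under 0.05, as had 9.32% of all tested genes. That gene was Ms10 (Solyc02g079810), a bHLH regulator of tapetum development. It had 28 and 17 reads at stage 1 (37.3 and 28.5 CPM) and 0, 0 and 2 reads at stage 2 (2.87 CPM in replicate 3). The groups did not overlap, as in 17.3% of tested genes with stage 2 lower. Scaled to depth, summed reads were 38.2 times as high at stage 1 (95% interval 9.98 to 325), and the fitted log2 change was -4.87 (SE 1.12, edgeR adjusted p = 0.149). At stage 3 all 3 fertile libraries held 0 reads. Over all settings tried, the edgeR or limma adjusted p lay between 0.00531 and 0.527 and passed 0.05 in 1 of them, that without a low-count filter.

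Ms32 (Solyc01g081100), a further bHLH regulator of the tapetum, stood at 120.0 and 123 CPM at stage 1 and at 33.7, 13.5 and 79.0 CPM at stage 2. Again the groups did not overlap, but the 3 stage 2 libraries differed several-fold among themselves, and the log2 change of -1.44 (SE 0.75) did not pass (edgeR adjusted p = 0.61). Its stage 3 mean was 6.17 ± 5.84 CPM (SD, n = 3).

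The bHLH gene AMS (Solyc08g062780) stood at 516 and 416 CPM at stage 1 and at 429, 154 and 534 at stage 2. For TDF1 (Solyc03g113530), a MYB gene of early tapetum development in Arabidopsis, the levels were 26.7 and 65.5 CPM, then 29.8, 1.22 and 47.4. MYB80 (Solyc10g005760) stood at 6.67 and 35.2 CPM, then at 38.9, 0 and 50.3. In each of these genes the stages overlapped and stage 2 replicate 2 was the lowest library. The same held for MS1 (Solyc04g008420), with 9.33 and 97.4 CPM at stage 1 and 50.6, 2.45 and 56.0 at stage 2. Log2 changes of these 4 genes lay between -0.72 and 0.61, with SE of 0.55 to 1.11 and edgeR adjusted p of 0.878 to 0.961. These values moved with the fit: with the replicate block the log2 changes of AMS, TDF1, MYB80 and MS1 were -0.83, -1.35, -0.13 and -0.88, and none passed (edgeR adjusted p = 0.447, 0.433, 0.961 and 0.55). Without stage 1 replicate 3 the changes of MYB80 and MS1 were 2.26 and 2.08. At stage 3 their means were 86.1 ± 68.1, 2.58 ± 2.60, 0.426 ± 0.738 and 0 CPM (SD, n = 3). Over the 6 regulators the median log2 change was -0.59, with 1 above 0.

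**Figure D1:**
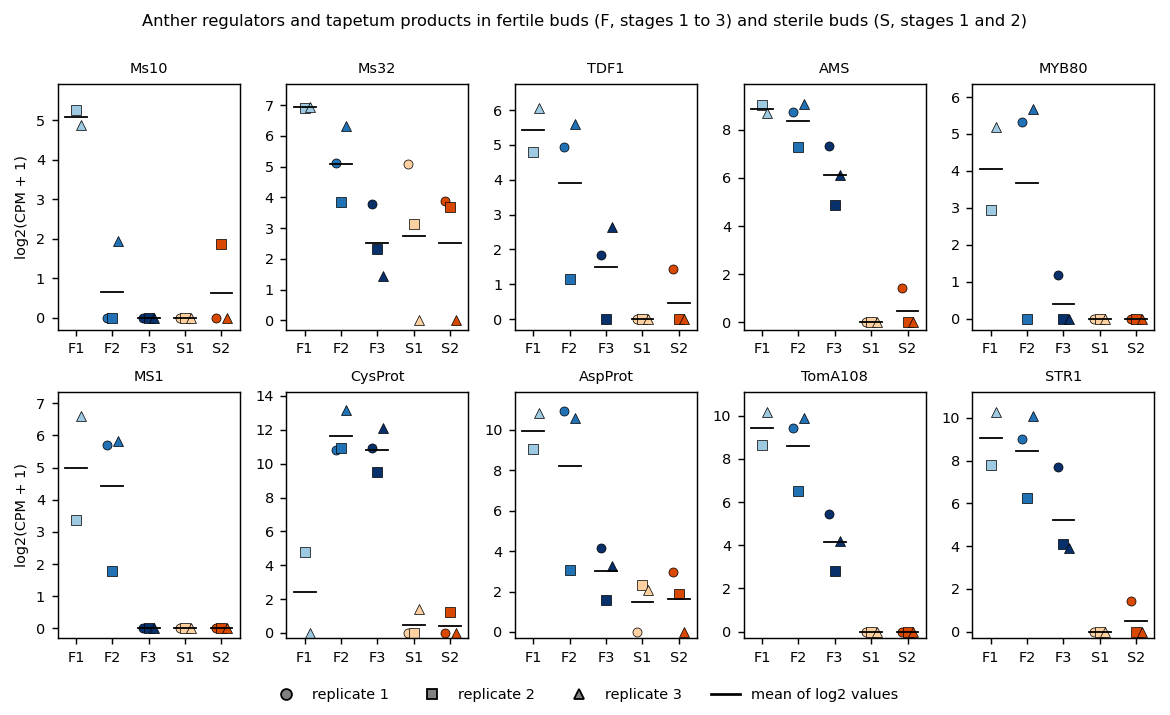
Levels of 6 anther regulators and 4 tapetum products as log2(CPM + 1), 1 point per library, in fertile buds at stages 1 to 3 (F1 to F3) and sterile buds at stages 1 and 2 (S1, S2). Marker shapes give the replicate number and bars the mean of the log2 values. CysProt rises from F1 to F2, Ms10 is near 0 in F2, and in AspProt replicate 2 of F2 (7.34 CPM) lies far below replicates 1 and 3 (1936 and 1526 CPM).

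Outside the lists the rule for naming genes took 2 identifiers that rose and 2 that fell. Solyc03g098680 had 0 reads in both stage 1 libraries and stood at 1052, 565 and 4811 CPM at stage 2, at least 908-fold higher (edgeR adjusted p = 0.00903). By RPKM it ranked 39, 101 and 3 among gene models at stage 2. Solyc01g010390 had 6 and 14 reads at stage 1 and stood at 239, 257 and 1476 CPM at stage 2, a log2 change of 5.52 (SE 0.94, edgeR adjusted p = 0.027). As for the cysteine protease gene, stage 2 replicate 3 held the highest level of both.

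That pattern was seen in 7 of the 13 genes that rose. In these, stage 2 replicate 3 held over 2 times the level of each of the other stage 2 libraries. In 4 of these 7, and in 2 of the other 6 genes that rose, no sterile library of stage 1 or 2 reached 10 CPM. The shares of all tested genes with either trait are not given, so these counts do not set the called genes apart. The fertile stage 3 mean was above that of stage 2 in 1 of the 7 and in all of the other 6. The 7 were picked by a high stage 2 library, which raises their stage 2 mean and favours a lower stage 3 mean. That split is therefore not a result about separate patterns. Sterile log2 changes ran from -0.55 to 2.68 in the 7, with 5 above 0, and from 0.67 to 2.52 in the 6, though no gene passed in sterile buds. The share of all tested genes above 0 in sterile buds is not given. Log2 changes of the 13 genes ran from 2.55 upwards, with a median of 4.69. The highest fitted value, 13.5, belongs to Solyc03g098680, which had no stage 1 read. Calls of both named risers were lost without either stage 1 library, and in the fit on only the libraries compared (edgeR adjusted p = 0.119 and 0.22).

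The 8 genes that fell kept 1.32% to 19.8% of their stage 1 level, with log2 changes of -5.95 to -2.25 and a median of -3.24. Solyc03g119620 stood at 74.7 and 63.8 CPM at stage 1 and at 1.30, 0 and 1.44 at stage 2. Only 2 reads were counted at stage 2 against 94 at stage 1, a depth-scaled ratio of 79.8 (95% interval 21.5 to 668, edgeR adjusted p = 0.0099). Solyc06g073750 stood at 297 and 183 CPM, then at 10.4, 4.89 and 15.8, a log2 change of -4.45 (SE 0.86, edgeR adjusted p = 0.0486). The stages of both genes lay far apart. In all 8 genes the fertile stage 3 mean was below the stage 2 mean. The share of all tested genes with this trait is not given, so the count does not set these genes apart. Both named calls held in the fit on only the libraries compared (edgeR adjusted p = 0.0319 for each) but were lost without either stage 1 library. That of Solyc06g073750 was also lost without any 1 stage 2 library. Over the alternative settings tried, Solyc03g119620 passed in 11 of 14 and Solyc06g073750 in 9 of 15.

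Of 8 tested genes of cutin and wax, 1 rose and none fell, with a median log2 change of 0.82 and 6 of 8 above 0. SHN1 (Solyc03g116610), an AP2-type regulator of cutin synthesis, had 1 and 2 reads at stage 1 (1.33 and 3.36 CPM) and 36, 25 and 19 reads at stage 2 (46.7, 30.6 and 27.3 CPM). The 3 stage 2 libraries lay close together and well above stage 1. Scaled to depth, summed reads were 15.7 times as high (95% interval 5.19 to 77.8), and the log2 change was 3.92 (SE 0.75, edgeR adjusted p = 0.0439). At stage 3 SHN1 reached 61.4, 64.1 and 116 CPM. In sterile buds it stood at 6.59 CPM at stage 1 and 10.2 CPM at stage 2 (means, n = 3). The call was lost without either stage 1 library (edgeR adjusted p = 0.399 and 0.232), without stage 2 replicate 1 (edgeR adjusted p = 0.104) and in the fit on only the libraries compared (edgeR adjusted p = 0.119).

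Further cutin genes, named after their values were seen, did not pass in this fit. CYP86A69 (Solyc08g081220), a fatty acid hydroxylase that makes cutin monomers, stood at 30.7 and 31.9 CPM, then at 144, 88.1 and 70.4. The stage 1 libraries nearly coincided and lay below all of stage 2, and the log2 change was 1.76 (SE 0.38, edgeR adjusted p = 0.0925). It passed with the replicate block (edgeR adjusted p = 0.036) and with the block within each line (edgeR adjusted p = 0.0233). DESeq2 called it too, as did edgeR without a low-count filter. MIXTA (Solyc02g088190), a MYB gene of epidermal cells, stood at 13.3 and 30.2 CPM and then at 55.8, 29.4 and 47.4, so the groups overlapped (log2 change 1.12, edgeR adjusted p = 0.357). The wax gene CER3 (Solyc03g117800) went the other way in level, at 228 and 352 CPM, then 235, 208 and 71.8, and did not pass (log2 change -0.70, edgeR adjusted p = 0.588).

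Among MADS-box genes, none passed by edgeR in the low-count-filtered fit without a block. The 4 B-class genes, which give petals and stamens their identity, all had log2 changes above 0, between 0.47 and 1.28, with a median of 1.01. In 3 of the 4 every stage 2 library lay above both stage 1 libraries, as in 10.1% of all tested genes. The PISTILLATA-type gene Solyc08g067230 stood at 315 and 378 CPM at stage 1 and at 592, 1083 and 725 at stage 2. Its log2 change was 1.28 (SE 0.32, edgeR adjusted p = 0.149). TAP3 (Solyc04g081000), an APETALA3-type gene, stood at 169 and 228 CPM and then at 393, 473 and 414, with a log2 change of 1.18 (SE 0.45, edgeR adjusted p = 0.401). Of the edgeR fits, both passed only that with the block within each line (adjusted p = 0.00722 and 0.00726), and DESeq2 also called the PISTILLATA-type gene.

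TAG1 (Solyc02g071730), an AGAMOUS relative that specifies stamens and carpels, stood at 189 and 262 CPM at stage 1 and at 501, 805 and 462 at stage 2. Both stage 1 libraries lay below the 3 of stage 2. The log2 change was 1.45 (SE 0.31, edgeR adjusted p = 0.0795), and TAG1 passed with the replicate block (edgeR adjusted p = 0.0261) and with the block within each line (edgeR adjusted p = 0.0202), as well as in DESeq2, in limma and without a low-count filter. TAGL1 (Solyc07g055920), its relative in carpels and fruit, stood at 50.7 and 45.3 CPM and then at 27.2, 77.1 and 48.8, with overlapping stages (log2 change 0.16, SE 0.38, edgeR adjusted p = 0.96). CRCa (Solyc01g010240), a YABBY gene of carpels and nectaries named after its values were seen, was below the low-count filter and was not tested. Its 15 reads at stage 1 and 2 reads at stage 2 gave a depth-scaled ratio of 12.7 (95% interval 2.96 to 115).

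In the A and E class 5 of 9 tested genes had log2 changes above 0, with a median of 0.15. TM29 (Solyc02g089200), a SEPALLATA-type gene, stood at 252 and 310.5 CPM and then at 442, 764 and 472, without overlap (log2 change 1.06, SE 0.30, edgeR adjusted p = 0.212). It passed with the block within each line (edgeR adjusted p = 0.0248) and in DESeq2 (DESeq2 adjusted p = 0.0394). TM5 (Solyc05g015750), a further SEPALLATA-type gene, stood at 165 and 190.0 CPM and then at 252, 391 and 266 (log2 change 0.84, SE 0.27, edgeR adjusted p = 0.314). Stage 2 replicate 2 held the highest level of TAG1, TM29, TM5 and all 4 B-class genes.

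**Figure D2:**
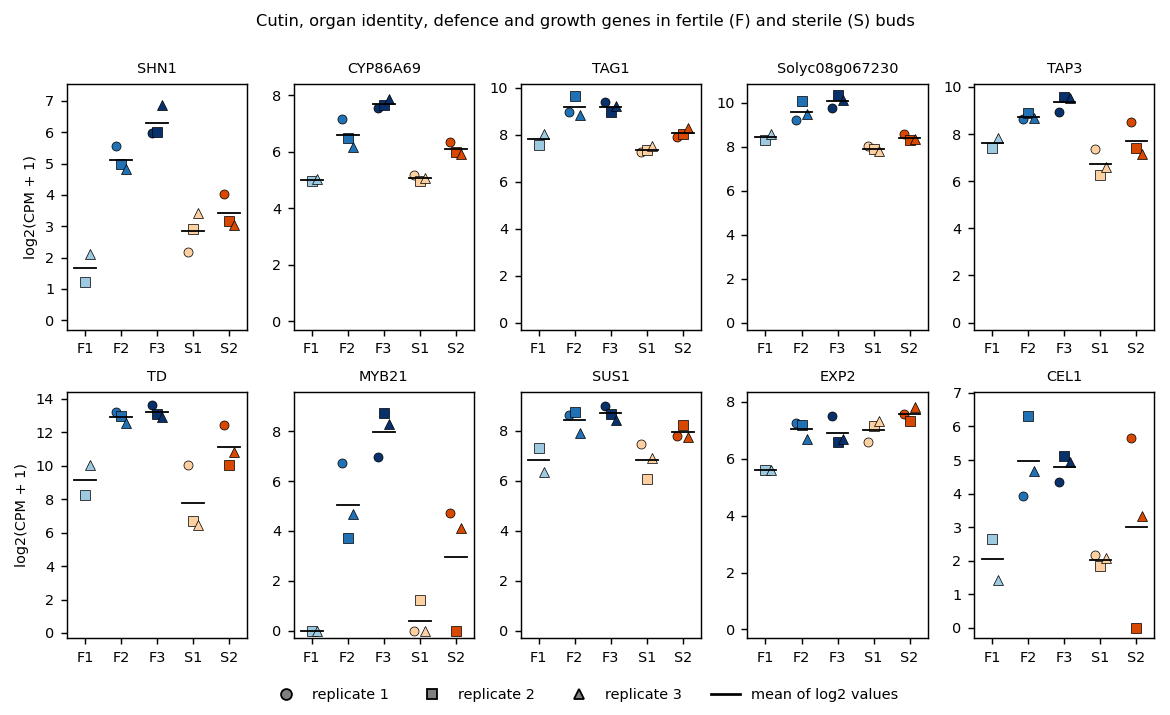
Levels as log2(CPM + 1), 1 point per library, of genes of cutin (SHN1, CYP86A69), organ identity (TAG1, Solyc08g067230, TAP3), defence and jasmonate (TD, MYB21) and growth (SUS1, EXP2, CEL1), with groups, marker shapes and bars as for the anther genes. SHN1 stands at 1.33 and 3.36 CPM in F1 and at 27.3 to 46.7 CPM in F2, and the organ identity genes shift by little more than 1 log2 unit.

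Of 8 tested wound and defence genes all had log2 changes above 0, with a median of 0.77. None passed by edgeR in the low-count-filtered fit without a block. TD (Solyc09g008670), a threonine deaminase that is abundant in tomato flowers and breaks down threonine in the gut of feeding insects, stood at 303 and 1061 CPM at stage 1 and at 9296, 7853 and 5895 at stage 2. By RPKM it ranked 2, 7 and 19 among gene models at stage 2, from 1062 and 288 at stage 1. The stages lay far apart, but the stage 1 libraries differed from each other too, and the log2 change of 3.55 (SE 1.02) did not pass (edgeR adjusted p = 0.232). It passed with the replicate block (edgeR adjusted p = 0.0255) and the block within each line (edgeR adjusted p = 0.00211). It also passed without a low-count filter (edgeR adjusted p = 0.00826). In sterile buds TD stood at 420.1 CPM at stage 1 and 2822 at stage 2 (means, n = 3), a log2 change of 2.84. LAPA1 (Solyc00g187050), a leucine aminopeptidase gene, stood at 675 and 1593 CPM and then at 6688, 2592 and 3440. Only 21.3% of its reads were assigned uniquely, so its level is uncertain (log2 change 1.97, SE 0.64, edgeR adjusted p = 0.315).

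Jasmonate genes showed no common shift between the stages: 8 of 16 tested genes had log2 changes above 0, with a median of -0.0507. None passed by edgeR in the low-count-filtered fit. LOXD (Solyc03g122340), a lipoxygenase of jasmonate synthesis, stood at 1033 and 198 CPM at stage 1 and at 424, 864 and 174 at stage 2. The repressor gene JAZ1 (Solyc07g042170) stood at 272 and 168 CPM, then at 213, 259 and 169. Both genes overlapped between stages and were higher in replicate 2 than in replicate 3 at each. MYB21 (Solyc02g067760), a MYB gene that acts downstream of jasmonate in Arabidopsis flowers and was named after its values were seen, had 0 reads at stage 1 and 80, 10 and 17 at stage 2 (104, 12.2 and 24.4 CPM). It was at least 21.0-fold higher at stage 2 and did not pass in the low-count-filtered fit (edgeR adjusted p = 0.2). DESeq2 called it, as did edgeR without a low-count filter. Stage 3 levels were 123, 426 and 310 CPM.

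Replicate number moved with several of these lists at both stages. Only lists above the share of all tested genes are named here, and the auxin, carotenoid, cell cycle and heat stress counts were near it. Below that share for replicate 2 were, among others, flavonoid (3 of 13), floral meristem and boundary (1 of 7) and reference genes (3 of 10). Replicate 2 was above replicate 3 at both fertile stages in 12 of 16 jasmonate genes, 14 of 17 ethylene genes, 8 of 12 cell wall genes, 5 of 7 sugar cleavage genes, 3 of 5 gibberellin genes, 6 of 13 carotenoid genes and 5 of 12 auxin genes, against 34% of all tested genes. Conversely, replicate 3 was above replicate 2 at both stages in 3 of 4 tapetum products, 4 of 6 anther regulators, 4 of 8 wound and defence genes, 4 of 9 A and E class genes, 4 of 9 steroidal alkaloid genes, 2 of 5 cell cycle genes, 3 of 8 heat stress genes and 8 of 18 photosynthesis genes, against 23.6% of all. Summed over the ethylene list, levels were 1974 and 1007 CPM in stage 1 replicates 2 and 3, and 1726, 2330 and 1001 CPM in stage 2 replicates 1, 2 and 3. Over the anther regulators the sums were 716 and 765 CPM, then 582.5, 171 and 770. The part of these shared differences in the results above was not tested.

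**Figure D3:**
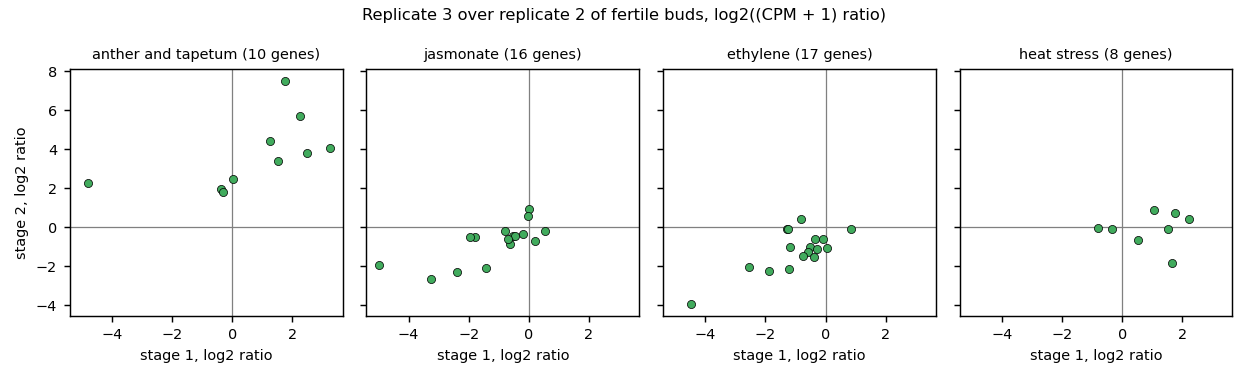
Each point is 1 tested gene of the named list, with the log2 ratio of replicate 3 over replicate 2 (of CPM + 1) in fertile stage 1 on the horizontal and in fertile stage 2 on the vertical axis. Most ethylene and jasmonate genes lie at the lower left (14 of 17 and 12 of 16), and most anther and tapetum genes in the upper right.

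Among genes that supply sugar and loosen walls, none passed by edgeR in the low-count-filtered fit without a block. Of 7 tested sugar cleavage genes 6 had log2 changes above 0 (median 0.94). SUS1 (Solyc12g009300), a sucrose synthase gene, stood at 159 and 80.6 CPM and then at 393, 432 and 241, without overlap (log2 change 1.64, SE 0.46, edgeR adjusted p = 0.22). DESeq2 called it (DESeq2 adjusted p = 0.0409), as did edgeR without a low-count filter. SUS3 (Solyc07g042550) stood at 111 and 83.9 CPM, then at 224, 224 and 41.6, with overlap (log2 change 0.80, edgeR adjusted p = 0.691). LIN7 (Solyc09g010090), a cell wall invertase gene of anthers named after its values were seen, had 3 reads at stage 1 and 35 at stage 2, a depth-scaled ratio of 6.87 (95% interval 2.17 to 34.9, edgeR adjusted p = 0.334).

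Of 12 cell wall genes 9 had log2 changes above 0 (median 0.54). The most abundant were PMEU1 (Solyc03g123630), a pectin methylesterase gene at 352 and 312 CPM, then 271, 239 and 207, and CEL8 (Solyc08g082250), an endoglucanase gene at 188 and 104 CPM, then 305, 224 and 204. Neither passed (log2 changes -0.40 and 0.82, edgeR adjusted p = 0.803 and 0.407), though their groups did not overlap. Stage 2 lay lower without overlap in 17.3% of tested genes and higher in 10.1%. The expansin gene EXP2 (Solyc06g049050), named after its values were seen, stood at 48.0 and 47.0 CPM and then at 151, 144 and 102, a log2 change of 1.55 (SE 0.38, edgeR adjusted p = 0.131). The endoglucanase gene CEL1 (Solyc08g081620), also named after its values were seen, stood at 5.33 and 1.68 CPM and then at 14.3, 78.3 and 24.4. EXP2 and CEL1 passed with the block within each line (edgeR adjusted p = 0.0326 and 0.0127), and EXP2 also in DESeq2 and without a low-count filter.

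No gene of cell division or of the meristem passed by edgeR. Of 5 cell cycle genes 4 had log2 changes below 0 (median -0.68). CDKB2 (Solyc04g082840), a kinase gene of dividing cells, stood at 74.7 and 60.4 CPM and then at 41.5, 15.9 and 40.2. The cyclin gene CycD3 (Solyc02g092980) stood at 49.3 and 70.5 CPM, then at 20.8, 40.4 and 44.5. Neither gene overlapped between stages, as in 17.3% of tested genes with stage 2 lower, and neither passed (log2 changes -0.98 and -0.68, edgeR adjusted p = 0.608 and 0.688). CCS52A (Solyc08g080080), an activator of the switch from division to endoreduplication named after its values were seen, stood at 10.7 and 8.39 CPM and at 19.5 to 24.5 CPM in the 3 stage 2 libraries (log2 change 1.27, SE 0.44, edgeR adjusted p = 0.344).

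Of 13 floral meristem and boundary genes 7 were tested, and 3 of the 7 had log2 changes above 0 (median -0.31). The homeobox gene TKN2 (Solyc02g081120), which keeps meristem cells undifferentiated, stood at 38.7 and 30.2 CPM and then at 27.2, 33.0 and 18.7 (log2 change -0.31, edgeR adjusted p = 0.925). YAB2 (Solyc11g071810), a YABBY gene of organ polarity, stood at 29.3 and 28.5 CPM and then at 28.5, 37.9 and 46.0 (log2 change 0.45, edgeR adjusted p = 0.804). Stages overlapped in both genes. TKN1 (Solyc04g077210), a homeobox gene named after its values were seen, stood at 33.3 and 26.9 CPM and then at 11.7, 7.34 and 10.1, without overlap (log2 change -1.55, SE 0.62, edgeR adjusted p = 0.433).

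All 8 tested heat stress genes had log2 changes below 0, with a median of -1.12, and none passed by edgeR. A single library moved with the most abundant members. MTSHP (Solyc08g078700), a mitochondrial small heat shock protein gene, stood at 307 and 1425 CPM at stage 1 and at 170.0, 297 and 393 at stage 2. HSP101 (Solyc03g115230), a protein disaggregase gene, stood at 340 and 1155 CPM, then at 214, 225 and 378. In both genes the stages overlapped and stage 1 replicate 3 was highest. The log2 changes of -1.52 (SE 0.52, edgeR adjusted p = 0.344) and -1.38 (SE 0.55, edgeR adjusted p = 0.432) became 0.04 and -0.18 without that library. Summed over the list, levels were 1070.0 and 3453 CPM at stage 1 and 719, 926 and 1098 at stage 2.

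The remaining lists held no call by edgeR. Of 13 carotenoid genes 12 had log2 changes above 0 (median 0.40), the most abundant being the zeaxanthin epoxidase gene ZEP (Solyc02g090890) at 98.7 and 83.9 CPM, then 154, 159 and 87.6, and the phytoene synthase gene PSY2 (Solyc02g081330) at 96.0 and 114 CPM, then 147, 150.4 and 112. Stages overlapped in both (edgeR adjusted p = 0.627 and 0.659). Of 9 steroidal alkaloid genes 8 had log2 changes above 0 (median 0.54). GAME11 (Solyc07g043420), a dioxygenase gene of this pathway, stood at 3883 and 4905 CPM and then at 4900, 6483 and 6757 and ranked between 3 and 6 by RPKM in every library. GAME12 (Solyc12g006470), a transaminase gene, stood at 815 and 888 CPM and then at 1104, 1419 and 1172. Their log2 changes were 0.54 and 0.61 (edgeR adjusted p = 0.724 and 0.667).

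Photosynthesis genes had log2 changes above 0 in 16 of 18, with a median of 0.33. RBCS3 (Solyc02g085950), a gene of the Rubisco small subunit, stood at 3174 and 1742 CPM and then at 3277, 3265 and 3578. The chlorophyll-binding protein gene CAB4 (Solyc07g047850) stood at 1600.0 and 1912 CPM, then at 1737, 1553 and 2768. Neither passed (edgeR adjusted p = 0.849 and 0.919), and several members of both families are near copies whose reads may be shared. Flavonoid genes were balanced, with 6 of 13 above 0 and a median of -0.00152. CHS2 (Solyc05g053550), a chalcone synthase gene, stood at 864 and 645 CPM and then at 579, 701 and 745, and FLS (Solyc11g013110), a flavonol synthase gene, at 476 and 500.2, then 520.3, 565 and 409. Both overlapped between stages (edgeR adjusted p = 0.979 and 0.968).

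Hormone lists stayed near the median of all genes. Of 12 auxin genes 4 had log2 changes above 0 (median -0.21), and IAA9 (Solyc04g076850), an Aux/IAA repressor gene of fruit set, stood at 653 and 608 CPM and then at 496, 557 and 530 (edgeR adjusted p = 0.903). Its groups did not overlap, as in 17.3% of tested genes with stage 2 lower. Of 17 ethylene genes 10 were above 0 (median 0.032), with ACO6 (Solyc02g036350), an ACC oxidase gene of ethylene synthesis, at 505 and 225 CPM, then 353, 557 and 278.5, and the transcription factor gene EIL1 (Solyc06g073720) at 185 and 122.5, then 228, 205 and 84.7 (edgeR adjusted p = 0.977 and 0.915). In the gibberellin list 5 of 17 genes were tested and 2 had log2 changes above 0 (median -0.12). The DELLA gene PROCERA (Solyc11g011260) stood at 144 and 146 CPM and then at 211, 110.1 and 182, and the receptor gene GID1b1 (Solyc09g074270) at 92.0 and 55.4, then 41.5, 57.5 and 34.5 (edgeR adjusted p = 0.841 and 0.657). The 10 reference genes had a median log2 change of 0.0638. EF1a (Solyc06g005060), a translation factor gene, stood at 2608 and 1897 CPM, then at 1919, 1661 and 2063, and the glycolytic gene GAPDH (Solyc05g014470) at 904 and 864 CPM, then 815, 783 and 1051 (edgeR adjusted p = 0.906 and 0.979).

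**Figure D4:**
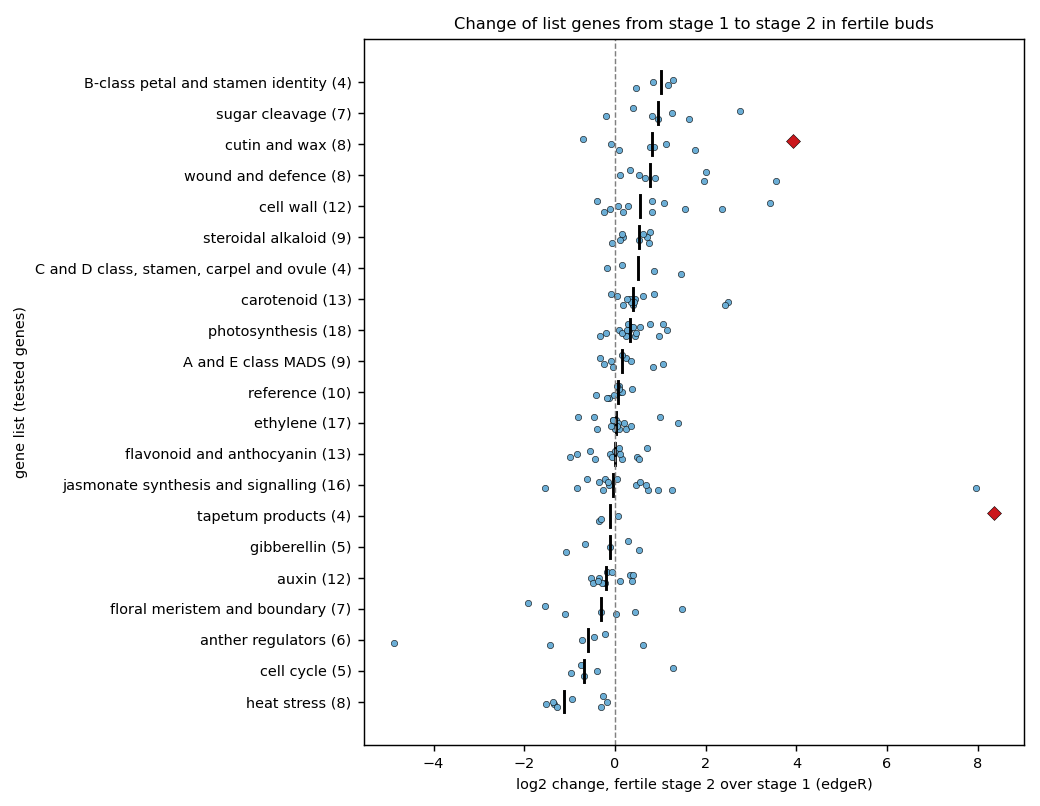
Log2 change from fertile stage 1 to stage 2 (edgeR) of each tested list gene, with the vertical bar at the median of its list and the number of tested genes in brackets; a red diamond marks a gene that passed an adjusted p of 0.05. Only SHN1 and CysProt passed, and list medians ran from -1.12 (heat stress) to 1.01 (B class).

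The same step in sterile buds called no gene by edgeR (0%), with 927 genes (6.83%) at an unadjusted p under 0.05. DESeq2 called 41 there and limma 2. The test of the difference between the lines (interaction) called no gene either (0%), with 393 genes (2.9%) at an unadjusted p under 0.05, and DESeq2 called 3 and limma 1. Of the 21 genes called in fertile buds, 12 had an unadjusted interaction p under 0.05, but these genes were chosen by the fertile step that enters the interaction, and their lowest edgeR adjusted p was 0.714. For the 13 genes that rose, sterile log2 changes ran from -0.55 to 2.68, with a median of 0.67 and 11 above 0. For the 8 that fell they ran from -1.98 to 0.34, with 5 below 0. Over all tested genes the median sterile log2 change was 0.0147. The share of all tested genes on either side of 0 there is not given, so these counts do not set the called genes apart. SHN1 had a sterile log2 change of 0.67 beside 3.92 in fertile buds, and CysProt, with 1 sterile read per stage, 0.0766 beside 8.37. Among genes that fell, Solyc06g073750 stood at 196 and 149 CPM in sterile buds of stages 1 and 2 (means, n = 3), where fertile buds stood at 240.1 ± 80.8 (SD, n = 2) and 10.4 ± 5.45 (SD, n = 3).

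**Figure D5:**
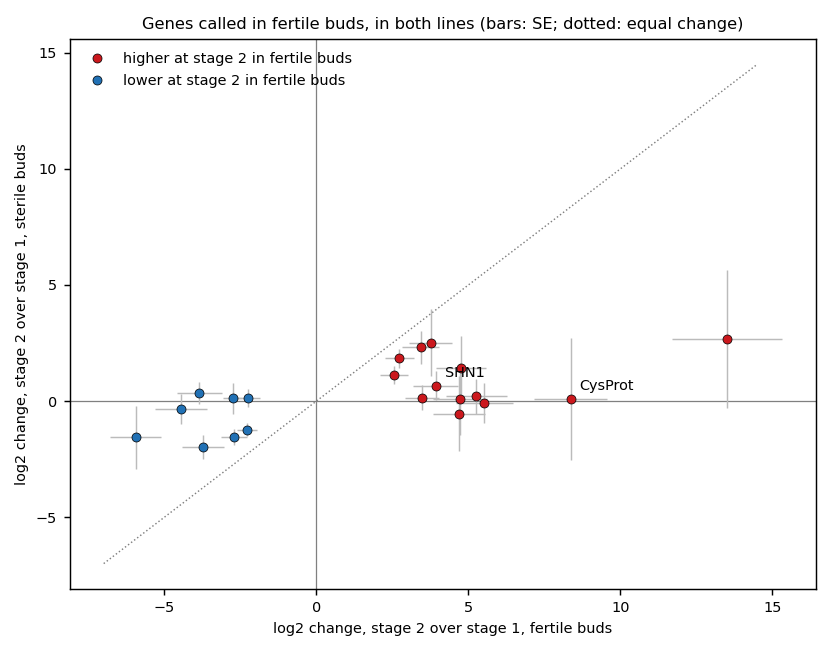
Log2 change from stage 1 to stage 2 in fertile buds (horizontal) and sterile buds (vertical) of the 21 genes called in fertile buds, with SE bars and a dotted line of equal change. The genes were chosen on the horizontal axis, where they run from -5.95 to 13.5, and on the vertical axis they lie between -1.98 and 2.68.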

How the data were processed

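RNA-seq tables of 17 floral bud libraries in 6 groups of line and stage were used. The deposited tables list, per the file headers, for 34727 gene models counts of all reads and of uniquely assigned reads, and the RPKM that the authors computed from them. RPKM computed again from total counts and gene lengths differed by more than 1e-06 in 0 cases. Gene lengths are coding lengths (34726 divide by 3). Aligner, counting program and strand setting: not given in the sources used here. Overlapping genes cannot be told apart.

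Tests on total counts used edgeR 4.0.16 under R 4.3.3 (TMM, filterByExpr, quasi-likelihood F-test, Benjamini-Hochberg over 13568 genes that held at least 97% of reads). All 17 libraries entered 1 fit with 11 residual degrees of freedom, and the biological coefficient of variation was 0.291. An SE is the log2 change divided by the square root of F. Fits with the replicate number as a block, over all libraries or within each line, and DESeq2 1.42.0 and limma 3.58.1 (pseudocount 0.5 CPM) were alternatives, as were other filters, scalings and samples. Scripts were tested on simulated data. No pair of replicates agreed within sampling noise, with a chi-square of 5.26 to 8.1 per gene in the 4 pairs.

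The comparison and the 22 lists of 245 genes were chosen with earlier results of these data known, and list names are recalled from the literature. RefSeq held a symbol for 171 of the list genes, of which 166 lay on the same chromosome and 163 within 5% in gene order. The others, among them Ms10, SHN1, CysProt, LAPA1 and GAPDH, could not be checked or lay elsewhere. ARF5 was not in the tables. Named are all anther regulators and tapetum products, of each other list up to 5 called genes or else the 2 tested genes with the highest level, and 2 unlisted genes each way with the largest change, at least 5 CPM and no overlap. Other names are marked in the text as chosen after their values were seen. For the auxin list, 1 gene taken by this rule is not reported here.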

Additional observations from a re-analysis of the deposited data

How the results depend on the processing

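The count of 21 genes (13 higher, 8 lower) was 21 or 22 with unique reads, RLE size factors or library totals, and 25 with a filter of 5 CPM in 2 libraries. It was 157 without a filter (123 higher, 34 lower), 74 in DESeq2 (65 higher), 29 in limma (27 higher, 2 lower), and 5 with only the libraries compared (1 higher, 4 lower). With the replicate block it was 82 (66 higher, 16 lower), and with the block within each line 195 (154 higher, 41 lower). Leaving out 1 library gave 0 to 30 calls, 0 to 24 higher and 0 to 10 lower: 8 without stage 1 replicate 2, 0 without stage 1 replicate 3, and 13, 27 and 30 without stage 2 replicates 1, 2 and 3. Without 1 stage 1 library, its lone partner is assumed to vary like the other groups. The direction of the 21 genes was kept in 315 of 315 pairs of gene and setting. All 21 had log2 changes of at least 2.25 in size and no overlap between stages, so a reversal was unlikely from the outset. The causes of these moves were not tested.

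Deviations from group means of same-numbered libraries at fertile stages 1 and 2 correlated at 0.308 (replicate 2) and 0.294 (replicate 3), and over the 16 same-numbered pairs of both lines at 0.0127 to 0.547, with 3 of them under 0.1. No label ties a number to a plant or day, so the numbers are not taken to pair the samples. Of 195 tested list genes, 5 passed with the replicate block and 10 with the block within each line, against 2 without. The share of all tested genes that passed moved the same way, at 0.604%, 1.44% and 0.155% in these 3 fits.

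Sterile stage 2 against stage 1 gave 0 calls, but 89 without a filter, 41 in DESeq2, 2 in limma, 28 with the replicate block and 93 with the block within each line, and 0 to 44 when 1 library was left out (44 without sterile stage 2 replicate 2, and 1 without replicate 3). The interaction gave 0 calls, but 14 without a filter, 3 in DESeq2, 1 in limma and 6 with the block within each line. Of 761 values of 51 named genes under all settings, 40 changed sign in a gene called in neither fit, 21 lost a call and 16 gained one. Where no read was counted in a group, a level of up to 2.23 CPM at stage 1 or 1.31 CPM at stage 2 remains possible (3 reads over the group).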
